A study of Mus musculus with 15 samples.

Results

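The genes described here encode the core proteins of the spliceosome's small nuclear ribonucleoprotein particles and the RNA-binding proteins that steer splice site choice. They were taken as every gene whose symbol starts with Srsf, Snrp, Hnrnp or Sf3. That gave 48 of the 11262 genes in the table of naive and newly activated CD8 T cells (11 Srsf, 11 Snrp, 18 Hnrnp and 8 Sf3) and 47 of the 11211 genes in the table of cytotoxic T lymphocytes (CTL), which has no entry for Srsf12. The names match their contents: every one of the 48 is annotated as an SR splicing factor, an snRNP polypeptide, an hnRNP or a subunit of splicing factor 3a or 3b.

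The study profiled polyadenylated mRNA in 15 libraries from mice carrying the P14 T cell receptor transgene, which recognises a lymphocytic choriomeningitis virus peptide. Values are FPKM, the fragments mapped to a gene scaled by its exon length and by a library size normalised with TMM, so each is a relative level and not a number of molecules per cell. There were 5 groups of 3 libraries. The naive group held lymph node CD8 T cells taken directly ex vivo and sorted as live, TCRβ-positive, CD8-positive, CD62L-high and CD44-low. TCR cells spent 24 h in culture with IL-12 (2 ng/ml), IL-2 (20 ng/ml), the antigenic peptide gp33-41 (100 ng/ml) and DMSO vehicle, and TCR_PI3Kdi cells had in place of vehicle alone 10 µM IC87114, an inhibitor of the phosphoinositide 3-kinase subunit p110δ; both were sorted as live CD8-positive cells. For each replicate of these 3 groups, cells of 3 female mice aged 9 to 13 weeks were pooled and split between the conditions. The CTL had been activated for 48 h and grown for 4 days in 20 ng/ml IL-2; on day 6 they were washed and kept for 24 h with 20 ng/ml IL-2 (CTL_IL2) or without it (CTL_noIL2), with no sort stated. The treatment labels of CTL_IL2 replicates 2 and 3 name IL3 and IL4, but their titles and protocol name IL-2, and they were read as IL-2. Sequencing depth per library is unknown because the files hold no counts; to show scale, the lowest value above 0 among genes with under 1200 exon bases was 0.02 to 0.09 FPKM in the libraries of the naive and activated cells and 0.05 to 0.15 FPKM in the CTL libraries. The tables were normalised separately, so levels are compared within a table only.

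Pre-mRNA splicing is carried out by the U1, U2, U4, U5 and U6 snRNPs, which are built on small nuclear RNAs held by a ring of Sm proteins or, for U6, of LSm proteins. U1 marks the 5′ splice site, and U2, held by the SF3A and SF3B complexes, marks the branch site. SR proteins mostly promote the use of nearby exons and hnRNPs often oppose them, and activated T cells are a textbook case of regulated exon choice, with the variable exons of CD45 skipped after stimulation through hnRNP L and the hnRNP L-like protein. The values here are totals per gene and show neither isoforms nor splicing itself.

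These mRNAs were abundant. The median over the 48 members of the mean level in the 9 libraries was 118 FPKM, beside 12.9 FPKM over all 11262 genes, and 46 of 48 averaged at least 10 FPKM. In the CTL libraries the median was 75.6 FPKM over 47 members, beside 12.3 FPKM over all 11211 genes, with 45 of 47 at or above 10 FPKM. No member was listed at 0 in any library. Among naive cells Srsf5 had the highest mean (313 ± 38.2 FPKM, SD, n = 3), followed by Hnrnpk (309 ± 26.2 FPKM), and Srsf12 the lowest (0.96 ± 0.0964 FPKM).

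Summed over the 48 members, the level was 4396, 4588 and 4455 FPKM in the 3 naive libraries, 7646, 8608 and 8700.3 FPKM in the TCR libraries and 7715, 7744 and 7821 FPKM in the TCR_PI3Kdi libraries. Every activated library was above every naive library, while the ranges of the activated groups overlapped. As a percentage of all FPKM in the library the mean sum was 0.981% in naive, 1.74% in TCR and 1.71% in TCR_PI3Kdi cells. Across the CTL libraries the 47 members summed to 5795, 5965 and 6267 FPKM with IL-2 and 3556, 3372 and 3260.0 FPKM without it, or 1.22% and 0.753% of all FPKM. The CTL without IL-2 were all below the CTL kept in IL-2. Hnrnp genes made up the largest share of the sum in each of the 5 groups. The sums rest on the most abundant members and carry no test. In bulk samples such as these, fewer cells of a type and less RNA per cell cannot be told apart.

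**Figure D1:**
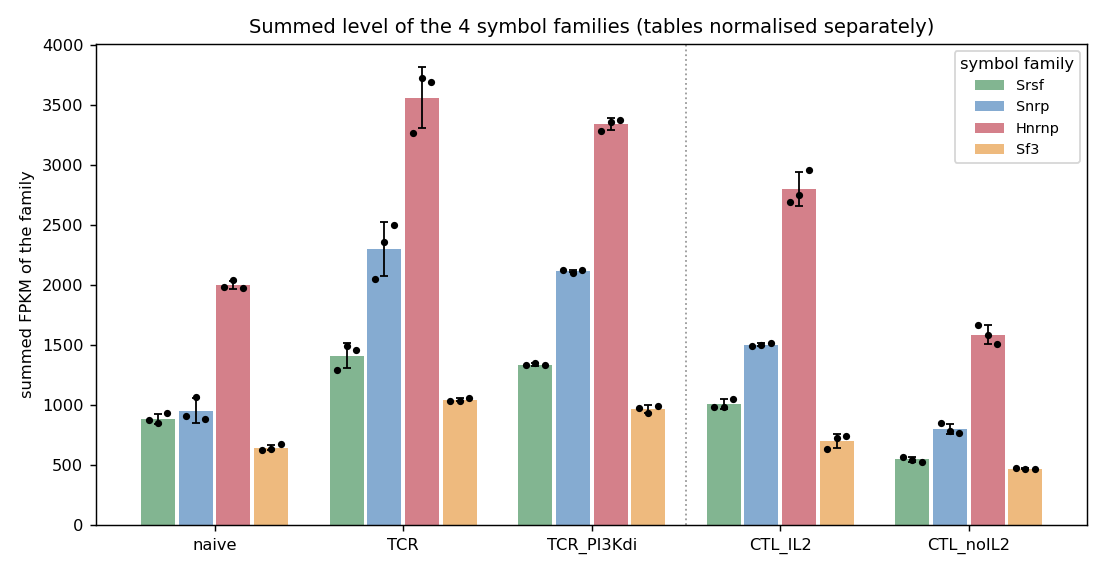
Summed FPKM (vertical axis, from 0) of the Srsf, Snrp, Hnrnp and Sf3 genes in each of the 5 groups; bars are means, error bars SD and points the 3 libraries of a group, and the dotted line separates the tables that were normalised separately. The Snrp sum averaged 953 FPKM in naive and 2302 FPKM in TCR cells, and 1501 FPKM and 797 FPKM in CTL with and without IL-2.

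The first comparison asks what 24 h of antigen and cytokine does to these mRNAs. Most rose: 40 of 48 were higher and 5 lower in TCR than in naive cells at an adjusted p under 0.05, where 40.9% and 39.8% of all 11262 genes passed the same test higher and lower. The test was limma on log2(FPKM + 0.1), with p adjusted by Benjamini-Hochberg over the whole table. With a fold over 2 also required, 24 members were higher and 1, the sparse Srsf12, was lower, beside 25.0% and 23.7% of all genes. The median log2 fold change was 0.96 over the members and 0.0054 over all genes, and 0.17 over the 6400 genes that averaged at least 10 FPKM. By family, 9 of 11 Snrp, 6 of 8 Sf3, 5 of 11 Srsf and 4 of 18 Hnrnp genes rose over 2-fold, and the family medians were 1.27, 1.13, 0.82 and 0.64. The snRNP and SF3 proteins thus had more members over the limit than the SR proteins and hnRNPs; the difference between families was not tested. Of the 24, Hnrnpd, Hnrnpu, Snrpb2, Snrpe and Srsf3 went under 2-fold in some fits that left out 1 library, with adjusted p still under 0.05. On the log2 scale they went down to 0.92 for Hnrnpd without TCR replicate 3, 0.96 for Hnrnpu without TCR replicate 2, 0.89 for Snrpb2 without TCR replicate 3, 0.98 for Snrpe without naive replicate 3 and 0.98 for Srsf3 without TCR replicate 2. Hnrnpd also went under 2-fold without naive replicate 1 (0.97) or 3 (0.99), Hnrnpu without TCR replicate 3 (0.99) or naive replicate 3 (0.9994), and Snrpb2 without TCR replicate 2 (0.90) or naive replicate 1 (0.99) or 3 (0.89). Total scaling took Hnrnpd (0.94), Hnrnpu (0.94) and Snrpb2 (0.93) under the limit, and a constant of 1 Hnrnpd (0.99) and Snrpb2 (0.98).

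With the p110δ inhibitor, few of these levels differed from those with TCR alone. None of the 48 differed over 2-fold between TCR_PI3Kdi and TCR cells in limma in either direction, beside 3.04% of all genes higher and 2.10% lower, and at an unadjusted p under 0.05 none were higher and 8 were lower, beside 16.1% and 15.4% of all genes. With no limit on the fold, 0 members were higher and 3 were lower (Hnrnpa1, Hnrnpab and Hnrnpc), beside 9.35% and 8.19% of all genes, a share of members close to that of all genes for the falls. The median over the members was -0.069 on the log2 scale, that over all genes -0.0076 and that over the 6400 genes that averaged at least 10 FPKM -0.047. With libraries scaled to equal totals the members' median was 0.011, so no direction is given. With that scaling only Hnrnpab passed, and it was also the only one to pass without TCR replicate 2 or without any single TCR_PI3Kdi library. Srsf9 passed as lower without TCR replicate 1 (-0.25) and Hnrnph3 without TCR replicate 3 (-0.51). Snrpc passed as lower with median scaling (-0.34), with GC correction (-0.31) and with only the 2 groups fitted (-0.31), and Hnrnph1 with only the 2 groups fitted (-0.25). In turn Hnrnpa1 did not pass with GC correction (-0.47), with only the 2 groups fitted (-0.47) or with a constant of 0.01 (-0.48), nor Hnrnpc without the intensity trend (-0.29).

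Against naive cells, most members were also higher in cells activated under the inhibitor. At an adjusted p under 0.05, 40 members were higher and 5 lower, beside 40.1% and 39.0% of all genes, and with the 2-fold limit 21 were higher and 1 lower, beside 23.6% and 21.3%. The median log2 fold change was 0.88 over the members, 0.0036 over all genes and 0.12 over the 6400 genes that averaged at least 10 FPKM. This comparison shares its naive libraries with the first and its TCR_PI3Kdi libraries with the second, so their results are not independent. The 5 that were lower were Srsf5, Srsf12, Sf3b1, Hnrnph3 and Hnrnpul2. Of the 21, Hnrnpa1, Hnrnpd, Sf3b5, Snrpb, Snrpc and Snrpf went under 2-fold without some single library: log2 fold changes of 0.99 for Hnrnpa1 without TCR_PI3Kdi replicate 1, 0.99 for Hnrnpd without TCR_PI3Kdi replicate 3, 0.98 for Snrpb without naive replicate 3, and 0.94 for Sf3b5, 0.92 for Snrpc and 0.98 for Snrpf without naive replicate 1. Hnrnpa1 (0.9995) and Sf3b5 (0.98) also did so without naive replicate 3, and Sf3b5 (0.9993) without TCR_PI3Kdi replicate 1. With a constant of 1, Hnrnpa1 was at 0.85.

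Withdrawing IL-2 from CTL for 24 h went with a broad fall. In limma, 40 of 47 members were lower and 1 (Sf3b1) was higher in CTL_noIL2 than in CTL_IL2 at an adjusted p under 0.05, beside 36.6% of all 11211 genes lower and 35.2% higher. Over 2-fold, 17 were lower, beside 13.9% of all genes, and 0 were higher, beside 14.3%; at an unadjusted p under 0.05, 1 was higher and 40 were lower, beside 36.3% and 37.7% of all genes. The median log2 fold change was -0.83 over the members, -0.00090 over all genes and -0.15 over the 6197 genes that averaged at least 10 FPKM. The falls over 2-fold were 6 of 11 Snrp, 5 of 10 Srsf, 5 of 18 Hnrnp and 1 of 8 Sf3 genes, with family medians of -1.12, -1.01, -0.68 and -0.98. Scaling each library to the same total FPKM moved the median of all genes up by 0.12 and left 11 members lower over 2-fold; the 6 lost were Hnrnpa1 (-1.07 before, -0.95 after), Hnrnpa2b1 (-1.02 and -0.90), Hnrnph1 (-1.12 and -0.99), Snrpc (-1.12 and -0.99), Srsf1 (-1.10 and -0.98) and Srsf9 (-1.10 and -0.98). Hnrnpa1 (-0.92) and Hnrnpa2b1 (-0.98) also went under 2-fold without CTL_IL2 replicate 3, and Hnrnpa2b1 (-0.94) without CTL_noIL2 replicate 3. With a constant of 1, Hnrnpa1 was at -0.76.

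The activation and IL-2 comparisons share no library. Of the 24 members that rose over 2-fold after activation, 13 (54.2%) fell over 2-fold without IL-2, which is 76.5% of the 17 that fell. Over the 10637 genes in both tables, 1075 did both, which is 42.8% of the 2514 that rose and 76.6% of the 1404 that fell. The members' share of the falls was thus close to that of all genes.

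**Figure D2:**
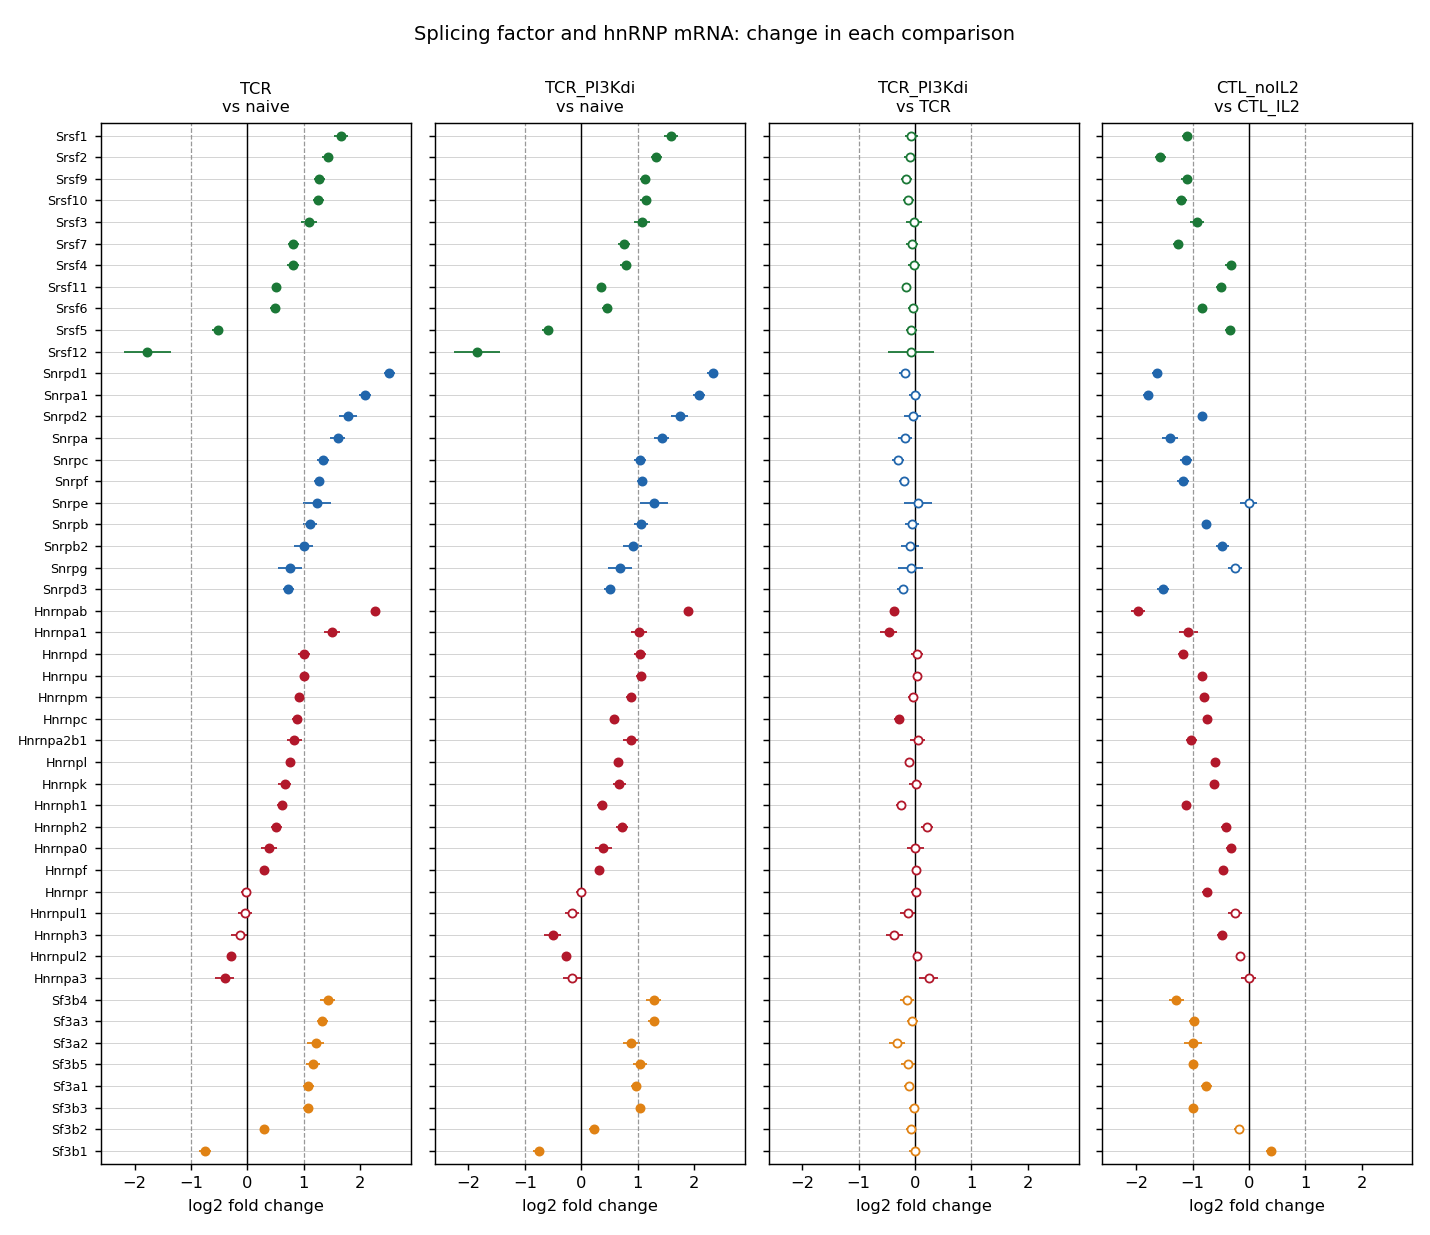
Log2 fold change (horizontal axis) of each member in the 4 comparisons, grouped by symbol family and sorted by the change after activation; points are estimates from 3 against 3 libraries, bars are SE, filled points have an adjusted p under 0.05 in limma and dashed lines mark 2-fold. The points of 40 members lie filled to the right of 0 for TCR against naive and those of 40 members filled to the left for CTL without IL-2; Srsf12 is not in the CTL table.

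The Sm ring, which the U1, U2, U4 and U5 snRNPs carry, is encoded by 7 of the members, and all 7 rose after activation, 5 of them over 2-fold. Snrpd1 (SmD1, Entrez Gene 20641) had the largest rise of the 48, with 36.2, 44.5 and 34.4 FPKM in the naive libraries, 211, 224 and 223 FPKM with TCR and 205, 193 and 181 FPKM with TCR_PI3Kdi. Every activated library was above every naive library, and the log2 fold changes were 2.52 ± 0.10 (SE, adjusted p = 1.26e-09) with TCR and 2.33 ± 0.10 (adjusted p = 3.15e-09) with TCR_PI3Kdi. The TCR_PI3Kdi libraries lay below the TCR libraries, but that difference did not pass the test (-0.18, adjusted p = 0.239). In CTL its level was 131, 136 and 146 FPKM with IL-2 and 49.2, 42.1 and 41.4 FPKM without, so the groups did not overlap, and the log2 fold change was -1.64 ± 0.089 (adjusted p = 5.57e-07).

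Its partner in the ring, Snrpd2 (SmD2, Entrez Gene 107686), went from 85.2, 113 and 72.8 FPKM in naive cells to 254, 329 and 348 FPKM with TCR and 308, 297 and 289 FPKM with TCR_PI3Kdi, with no overlap between naive and activated libraries. The log2 fold changes against naive cells were 1.79 ± 0.16 (adjusted p = 7.31e-07) and 1.75 ± 0.16 (adjusted p = 1.08e-06). Snrpb, which encodes SmB, rose by 1.12 after activation (adjusted p = 7.46e-06) from 162, 185 and 147 FPKM to 291, 379 and 408 FPKM, and by 1.06 under the inhibitor (adjusted p = 1.34e-05). Its neuronal paralog Snrpn has no entry in either table. Snrpd3 (SmD3) had the highest naive level of the ring, 202, 209 and 248 FPKM, and the TCR libraries at 388, 338 and 360.4 FPKM were all above it, though by less than 2-fold (0.73 ± 0.096, adjusted p = 2.61e-05). Without IL-2 it fell over 2-fold, from 245, 296 and 317 FPKM to 109.8, 96.7 and 90.3 FPKM (-1.53 ± 0.11, adjusted p = 2.59e-06), with no overlap, while Snrpb fell from 216, 215 and 212 FPKM to 135, 127 and 117 FPKM (-0.76, adjusted p = 1.78e-05). The 7 ring genes therefore did not move as a fixed ratio: without IL-2 their log2 fold changes ran from -1.64 to -0.0068, with 5 past the test.

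Snrpe (SmE) and Snrpg (SmG) were the ring genes not past the test in CTL, and their values spread widely within the naive, TCR and CTL_IL2 groups. Snrpe was at 111, 143 and 73.2 FPKM in naive libraries, 167, 288 and 319 FPKM with TCR, 249, 255 and 269 FPKM with TCR_PI3Kdi, 212, 140.1 and 133 FPKM in CTL_IL2 and 160.4, 154 and 158 FPKM in CTL_noIL2. Its naive and TCR libraries did not overlap (1.24 ± 0.25, adjusted p = 0.000832), and its CTL groups did, with a log2 difference of -0.0068 ± 0.16 (adjusted p = 0.971) that passed as higher only without CTL_IL2 replicate 1 (0.21). Snrpg overlapped between naive (114, 140.3 and 77.9 FPKM) and TCR (134, 209 and 219 FPKM) libraries though its rise passed (0.76 ± 0.22, adjusted p = 0.00653); its rise with TCR_PI3Kdi was lost without naive replicate 3 (0.45), and in CTL (-0.25, adjusted p = 0.0866) it passed as lower without CTL_IL2 replicate 2 (-0.33) or with the replicate number as a block. Naive replicate 3, TCR replicate 1 and CTL_IL2 replicate 2 leaned toward GC-rich genes compared with the other libraries of their group; in TCR replicate 1 the median deviation from the group mean was -0.11 on the log2 scale in the fifth of genes with the lowest GC and 0.09 in the fifth with the highest. The part of this lean in the spread of Snrpe and Snrpg was not tested. Snrpf (SmF) rose (1.27, adjusted p = 1.16e-07) and fell in CTL (-1.17, adjusted p = 1.2e-05), but 89.5% of its transcript sequence is shared with other annotated genes, among them the overlapping antisense gene Ccdc38, so its values are uncertain.

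Among the Snrp genes, all those specific to U1 or U2 rose over 2-fold after activation. They are Snrpa and Snrpc, which sit on the U1 particle, and Snrpa1 and Snrpb2, which bind U2 as a pair. Snrpb2 lay at the limit and went under 2-fold in 6 alternatives. Snrpa1 (Entrez Gene 68981) was at 30.9, 36.2 and 28.02 FPKM in naive cells, 119, 138 and 147 FPKM with TCR and 143, 129 and 131 FPKM with TCR_PI3Kdi. Activated and naive libraries did not overlap, the activated groups did, and the log2 fold changes against naive cells were 2.08 ± 0.11 (adjusted p = 1.18e-08) and 2.09 ± 0.11 (adjusted p = 1.55e-08). Without IL-2 it fell from 83.1, 70.7 and 81.1 FPKM to 23.8, 22.7 and 21.3 FPKM (-1.79 ± 0.088, adjusted p = 3.95e-07), again with no overlap. Its partner Snrpb2 changed less in both settings, by 1.00 after activation (adjusted p = 0.00016) and -0.48 without IL-2 (adjusted p = 0.00415). For the U1 pair the values were 1.60 and -1.41 for Snrpa, and 1.35 and -1.12 for Snrpc, each past the test.

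In the SF3 complexes, which clamp U2 onto the branch site, all 3 SF3A genes and 3 of 5 SF3B genes rose over 2-fold after activation. The exception in direction was Sf3b1 (Entrez Gene 81898), the subunit that holds the branch site helix and is a known target of splicing inhibitor drugs. It was at 175, 169 and 154 FPKM in naive cells, 86.8, 103 and 107 FPKM with TCR and 94.1, 93.7 and 107 FPKM with TCR_PI3Kdi. All naive libraries were above all activated ones, and the fall of -0.75 ± 0.098 (adjusted p = 2.41e-05) with TCR and -0.76 ± 0.098 (adjusted p = 2.49e-05) with TCR_PI3Kdi is 1.68-fold and 1.69-fold. In CTL it was the only member to rise when IL-2 was removed, from 91.3, 76.3 and 82.7 FPKM to 109, 104 and 113 FPKM, with no overlap (0.39 ± 0.085, adjusted p = 0.00242). Its change was thus opposite to the module's median in each of these 3 comparisons.

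Sf3b3, a beta-propeller scaffold of the same complex, moved with the majority: 90.6, 84.2 and 86.9 FPKM in naive, 169.9, 186 and 194 FPKM with TCR and 179.7, 172 and 187 FPKM with TCR_PI3Kdi. The activated libraries all exceeded the naive ones (1.07 ± 0.078, adjusted p = 1.67e-07, and 1.04 ± 0.078, adjusted p = 2.58e-07). Removing IL-2 took it from 105, 107 and 114 FPKM to 58.97, 54.97 and 50.8 FPKM, a fall of 1.98-fold that passed the test and stayed just inside the 2-fold limit (-0.99 ± 0.080, adjusted p = 4.61e-06). Sf3b2, which binds next to Sf3b1 and was the second most abundant SF3 mRNA of naive cells, changed little: 0.30 after activation (adjusted p = 0.00392), 0.22 with TCR_PI3Kdi against naive (adjusted p = 0.0207) and -0.18 without IL-2, where the groups overlapped (adjusted p = 0.0789). Its rise with TCR_PI3Kdi against naive did not pass without naive replicate 1 (0.18) or TCR_PI3Kdi replicate 3 (0.19), and its lower level without IL-2 passed without CTL_IL2 replicate 1 (-0.26) and with GC correction (-0.18). The remaining SF3 genes (Sf3a1, Sf3a2, Sf3a3, Sf3b4 and Sf3b5) rose by 1.09 to 1.43 after activation and fell by 0.76 to 1.29 without IL-2. Of these, 51.2% of the Sf3b4 sequence is shared with other annotated genes, so its values are less certain.

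**Figure D3:**
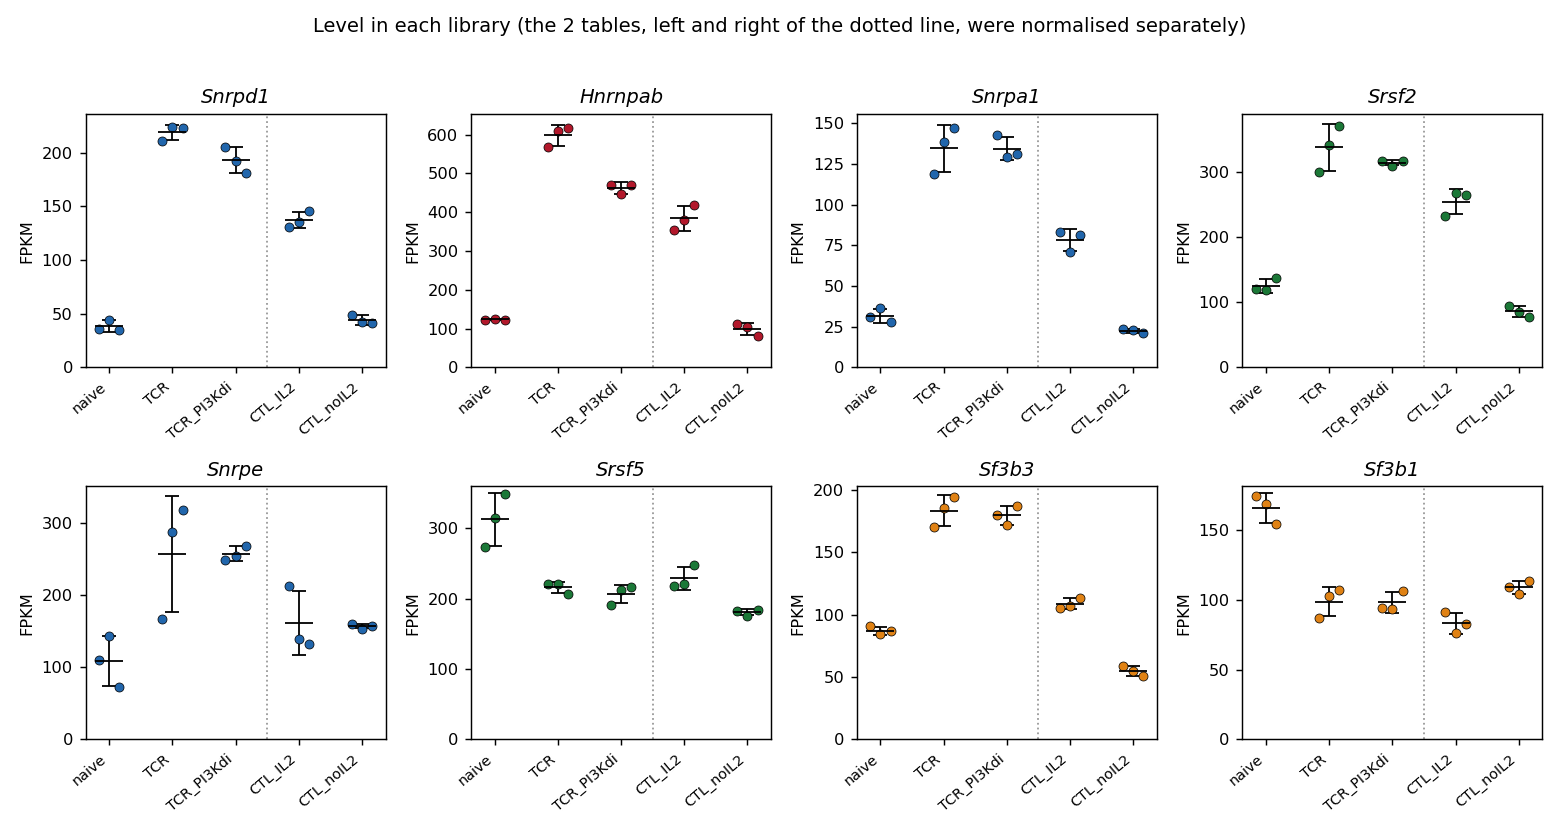
FPKM (vertical axis, from 0) of 8 members in each of the 15 libraries; points are libraries, the long bar is the group mean and the short bars mark 1 SD, and the dotted line separates the tables that were normalised separately. Snrpd1, Hnrnpab, Snrpa1, Srsf2 and Sf3b3 are higher in activated than in naive cells and lower in CTL without IL-2, Sf3b1 and Srsf5 are higher in naive than in activated cells, and Snrpe spreads widely in the naive, TCR and CTL_IL2 groups.

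SR proteins bind exonic enhancers through their RNA recognition motifs and recruit the splicing machinery through arginine-serine tails. Of 11 genes, 9 rose after activation (5 over 2-fold: Srsf1, Srsf2, Srsf3, Srsf9 and Srsf10) and 2 fell, and in CTL all 10 measured genes fell without IL-2 (5 over 2-fold: Srsf1, Srsf2, Srsf7, Srsf9 and Srsf10). The fall of Srsf4 (-0.33, adjusted p = 0.0154) was lost with total scaling (-0.20) and without CTL_IL2 replicate 3 (-0.25) or CTL_noIL2 replicate 1 (-0.30). Srsf1 (SF2/ASF), the founding member, was at 57.7, 42.3 and 46.2 FPKM in naive cells, 132, 169 and 159 FPKM with TCR and 148, 147 and 144 FPKM with TCR_PI3Kdi. The naive libraries were all below the activated ones (1.66 ± 0.12, adjusted p = 1.7e-07, and 1.59 ± 0.12, adjusted p = 2.95e-07). Without IL-2 it fell from 95.3, 87.3 and 101 FPKM to 47.9, 45.2 and 39.2 FPKM, with no overlap (-1.10 ± 0.096, adjusted p = 6.88e-06). Srsf2 (SC35, Entrez Gene 20382), a marker protein of nuclear speckles, was at 119.7, 118 and 137 FPKM, 299, 341 and 371 FPKM and 316, 309 and 317 FPKM in naive, TCR and TCR_PI3Kdi libraries. Naive and activated libraries were separate (1.43 ± 0.095, adjusted p = 7.72e-08, and 1.33 ± 0.095, adjusted p = 1.76e-07). Its fall in CTL, from 232, 267 and 264 FPKM to 94.8, 85.5 and 76.7 FPKM, was the largest of the SR genes (-1.57 ± 0.097, adjusted p = 1.01e-06). Srsf2 overlaps the antisense genes Mettl23 and Mfsd11, and 31.8% of its sequence is shared with other annotated genes.

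Srsf5 (SRp40, Entrez Gene 20384) went the other way after activation, with 273, 316 and 349.6 FPKM in naive, 220.4, 222 and 206 FPKM in TCR and 192, 212 and 216 FPKM in TCR_PI3Kdi libraries. All naive libraries were above all activated ones (-0.53 ± 0.099, adjusted p = 0.000429, and -0.59 ± 0.099, adjusted p = 0.000188). In CTL it fell slightly without IL-2, from 219, 221 and 248 FPKM to 183, 176 and 184 FPKM (-0.34 ± 0.078, adjusted p = 0.00314), so unlike Sf3b1 it followed the module there. Srsf5 was the most abundant member of naive cells and ranked behind Srsf2 among SR genes in TCR cells. The other SR gene to fall was Srsf12, at 0.92, 1.07 and 0.89 FPKM in naive, 0.19, 0.23 and 0.21 FPKM in TCR and 0.17, 0.53 and 0.05 FPKM in TCR_PI3Kdi libraries. It fell by 3.41-fold and 3.59-fold (-1.77 ± 0.41, adjusted p = 0.00199, and -1.84 ± 0.41, adjusted p = 0.0016), with no overlap, but at about 1 FPKM or less the size depends on the constant added before the logarithm, and it was under 2-fold (-0.69 and -0.67) with a constant of 1.

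The hnRNPs, which coat nascent transcripts and often block splice sites, were the only family with members that did not pass the test for TCR against naive: 13 of 18 rose after activation (4 over 2-fold), 2 fell and 3 (Hnrnph3, Hnrnpr and Hnrnpul1) did neither. One of the 13, Hnrnpa0 (0.39 with TCR and 0.39 with TCR_PI3Kdi), is uncertain, since its rise with TCR was lost without naive replicate 1 (0.39) or 3 (0.26) or TCR replicate 2 (0.35) or 3 (0.26), and that with TCR_PI3Kdi without naive replicate 1 (0.39) or 3 (0.27) or TCR_PI3Kdi replicate 1 (0.38), 2 (0.42) or 3 (0.38). Both were also lost with GC correction (0.39) and without the intensity trend (0.39), and that with TCR with only the 2 groups fitted (0.39). Hnrnpab (Entrez Gene 15384), an A/B type hnRNP of nucleus and cytoplasm, stood at 123, 126 and 122 FPKM in naive cells and rose to 568, 609 and 618 FPKM with TCR, the highest mean of any member in that group. With TCR_PI3Kdi it reached 471, 446 and 470.1 FPKM, above all naive and below all TCR libraries. The log2 fold changes were 2.27 ± 0.074 (adjusted p = 3.17e-10) for TCR and 1.90 ± 0.074 (adjusted p = 1.66e-09) for TCR_PI3Kdi against naive, and -0.37 ± 0.074 (adjusted p = 0.00633) for TCR_PI3Kdi against TCR. It also had the largest fall of the 47 members in CTL, from 353, 379 and 419 FPKM to 112, 104 and 80.5 FPKM without IL-2, with no overlap (-1.97 ± 0.13, adjusted p = 1.14e-06). Hnrnpab overlaps the antisense gene Phykpl, and 23.8% of its sequence is shared with other annotated genes.

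Hnrnpa1, the classical antagonist of Srsf1, was listed at 2.97, 2.77 and 2.68 FPKM in naive, 9.58, 8.26 and 6.75 FPKM in TCR and 6.18, 6.04 and 5.32 FPKM in TCR_PI3Kdi libraries, and at 2.83, 2.57 and 3.72 FPKM in CTL with IL-2 and 1.28, 1.36 and 1.49 FPKM without. The naive group lay below the TCR_PI3Kdi group and that below the TCR group, and the CTL groups were also separate. The change with TCR against naive was 2.83-fold (adjusted p = 1.91e-06), and the log2 fold changes were 1.03 ± 0.15 (adjusted p = 4.99e-05) for TCR_PI3Kdi against naive, -0.47 ± 0.15 (adjusted p = 0.0476) for TCR_PI3Kdi against TCR and -1.07 ± 0.18 (adjusted p = 0.000409) in CTL. Its absolute level is uncertain: 46.7% of its sequence is shared with 20 other annotated genes, and how fragments from such stretches were placed was not tested, while its close relative Hnrnpa2b1, with 1.60% shared, was at 229.5, 237 and 222 FPKM in naive cells. Hnrnpc, which binds uridine-rich stretches, was the third member lower with the inhibitor, at 223, 251 and 246 FPKM in TCR and 196, 199 and 195 FPKM in TCR_PI3Kdi libraries, with no overlap (-0.29 ± 0.080, adjusted p = 0.0312). The inhibitor calls of Hnrnpa1 and Hnrnpc were lost in several alternatives: without TCR replicate 2 (-0.46 and -0.25) or TCR_PI3Kdi replicate 1 (-0.51 and -0.28), 2 (-0.49 and -0.29) or 3 (-0.40 and -0.28), for Hnrnpa1 also without TCR replicate 1 (-0.35) and for Hnrnpc without TCR replicate 3 (-0.27); Hnrnpab passed in every alternative.

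Hnrnpl, which silences the variable exons of CD45, was at 168, 175 and 168 FPKM in naive, 287, 294 and 287 FPKM in TCR and 269, 261 and 274 FPKM in TCR_PI3Kdi libraries. The naive libraries were below all others (0.76 ± 0.069, adjusted p = 1.03e-06, and 0.65 ± 0.069, adjusted p = 4.57e-06), and the level fell from 187, 204 and 195 FPKM to 138, 131 and 119 FPKM without IL-2 (-0.60 ± 0.081, adjusted p = 0.000122). The hnRNP L-like protein, which acts on the same exons, is listed under the older spelling Hnrpll and so falls outside the symbol rule. Hnrpll was at 10.2, 9.35 and 9.46 FPKM in naive, 25.5, 34.5 and 31.2 FPKM in TCR and 27.8, 26.4 and 23.5 FPKM in TCR_PI3Kdi libraries, so all activated libraries were above all naive ones (1.63 ± 0.12, adjusted p = 1.59e-07, and 1.41 ± 0.12, adjusted p = 6.65e-07). With the inhibitor against TCR it was -0.22 (adjusted p = 0.23), which passed only without TCR replicate 1 (-0.34). In CTL it rose without IL-2, from 27.1, 23.3 and 21.04 FPKM to 46.5, 42.8 and 37.5 FPKM, with no overlap (0.83 ± 0.11, adjusted p = 0.000139), while Hnrnpl fell. Also outside the rule by spelling were Hnrpdl (hnRNP D-like; 0.86 after activation, adjusted p = 0.000132, and -0.87 in CTL, adjusted p = 1.02e-05) and 0610009D07Rik (now Sf3b6; 0.76, adjusted p = 1.14e-05, and -0.64, adjusted p = 5.94e-05).

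Hnrnpk, a binder of cytidine-rich RNA and the second most abundant member of naive cells, was at 309, 335 and 283 FPKM in naive, 408, 532 and 537 FPKM in TCR and 484, 487 and 509 FPKM in TCR_PI3Kdi libraries. It rose by less than 2-fold (0.66 ± 0.12, adjusted p = 0.000238, and 0.68 ± 0.12, adjusted p = 0.000216) and fell in CTL from 419, 389 and 422 FPKM to 279, 264 and 257 FPKM (-0.62 ± 0.077, adjusted p = 6.48e-05). Among hnRNPs over 2-fold up after activation were also Hnrnpd (AUF1), which binds AU-rich elements (1.01), and Hnrnpu, a nuclear matrix protein (1.01). Lower after activation were Hnrnpul2 (-0.29, adjusted p = 0.00202) and Hnrnpa3, from 15.1, 14.5 and 9.91 FPKM to 8.26, 9.99 and 11.2 FPKM, whose groups overlapped (-0.40 ± 0.17, adjusted p = 0.0421). The Hnrnpa3 call was lost with the replicate number as a block, without the intensity trend or with only the 2 groups fitted (-0.40 in each), with median scaling (-0.28), and without naive replicate 1 (-0.29), naive replicate 2 (-0.32), TCR replicate 1 (-0.28) or TCR replicate 2 (-0.42), and 27.7% of its sequence is shared with 46 other genes; with TCR_PI3Kdi it passed as lower than naive only without naive replicate 3 (-0.35). Hnrnph3 was at 18.7, 14.8 and 19.7 FPKM in naive, 19.2, 16.3 and 13.1 FPKM in TCR and 12.6, 13.02 and 11.6 FPKM in TCR_PI3Kdi libraries; it was lower than naive only with the inhibitor (-0.50 ± 0.15, adjusted p = 0.00941), and against TCR the inhibitor difference of -0.37 did not pass (adjusted p = 0.12) except without TCR replicate 3 (-0.51). Without IL-2, 15 of 18 hnRNP genes fell (Hnrnpa0, at -0.32, not with total scaling, at -0.19), and Hnrnpa3 (-0.0025), Hnrnpul1 (-0.25) and Hnrnpul2 (-0.15) did not pass the test, though Hnrnpul1 (-0.41) and Hnrnpul2 (-0.18) passed as lower without CTL_IL2 replicate 1.

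Other genes of the splicing pathway, in lists not built on the symbol rule, were read in the same fits. Beside 25.0% of all genes higher and 23.7% lower over 2-fold after activation, the shares higher were larger for snRNP assembly, the exon junction complex and further U snRNP proteins, close to it for SR-related proteins, other regulators and branch site factors, and smaller for the Prp19 list; no list was tested. After activation, 11 of 16 genes for snRNP assembly (the SMN complex and its partners) rose over 2-fold and none fell, with a median log2 fold change of 1.52; Gemin6 (2.40) and Gemin5 (2.17) led. For U snRNP proteins outside the symbol rule 14 of 31 rose over 2-fold (Lsm2 2.18, Prpf31 2.06), for 3′ splice site and branch site recognition 4 of 17 (U2af1 1.90, Phf5a 1.83), and for the Prp19 complex and catalytic steps 3 of 26 (Ppil1 2.75, Prpf19 1.30). The exon junction complex had 4 of 5 over 2-fold higher (Rbm8a 1.81, Magohb 1.80), SR-related proteins 5 of 18 (Rnps1 1.496, Tra2a 1.27) and other splicing regulators 11 of 38 (Ybx1 2.13, Mbnl3 1.38), the last with 1 lower. Among SR protein kinases, which phosphorylate the arginine-serine tails of the Srsf proteins, 0 of 7 were higher and 3 lower over 2-fold, led by Srpk2 (-2.24) and Clk1 (-1.47), and 5 were lower at an adjusted p under 0.05, beside 39.8% of all genes.

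With TCR_PI3Kdi against naive, 23.6% of all genes were higher and 21.3% lower over 2-fold. Higher over 2-fold were 11 of 16 snRNP assembly genes (Gemin8 2.42, Gemin4 2.19), 13 of 31 further U snRNP proteins (Prpf31 2.06, Lsm2 1.85), 3 of 5 exon junction genes (Magoh 1.39, Rbm8a 1.37) and 9 of 38 other regulators (Ybx1 1.86, Mbnl3 1.56), the last with 1 lower. The further counts higher were 4 of 18 SR-related proteins (Rnps1 1.27, Tra2a 1.13), 3 of 17 branch site factors (Phf5a 1.62, U2af1 1.62) and 3 of 26 of the Prp19 list (Ppil1 2.49, Prpf19 1.35), and 3 of 7 kinases were lower (Srpk2 -1.78, Clk1 -1.62). For TCR_PI3Kdi against TCR, none of the genes in these 8 lists differed over 2-fold in limma, beside 3.04% of all genes higher and 2.10% lower. At an adjusted p under 0.05, where 8.19% of all genes were lower, the counts lower were 2 of 5 exon junction genes, 5 of 31 further U snRNP proteins, 2 of 16 snRNP assembly genes, 2 of 17 branch site factors, 1 of 7 kinases, 1 of 18 SR-related proteins, 1 of 26 of the Prp19 list and 1 of 38 other regulators. At most 1 gene per list was higher, beside 9.35% of all genes.

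Without IL-2, 13.9% of all genes were lower and 14.3% higher over 2-fold, and the shares lower were largest for the exon junction complex, snRNP assembly and further U snRNP proteins. Over 2-fold lower were 9 of 16 snRNP assembly genes (Gemin6 -1.98, Wdr77 -1.78), 8 of 31 further U snRNP proteins (Prpf31 -1.70, Lsm2 -1.60), and 4 of 5 exon junction genes (Magohb -2.004, Rbm8a -1.45). The remaining counts lower were those of other regulators (7 of 37: Ybx1 -1.65, Fubp1 -1.64), SR-related proteins (3 of 18: Tra2a -1.21, Tra2b -1.11), 3′ splice site and branch site factors (2 of 17: U2af1 -1.40, U2af2 -1.05) and the Prp19 and catalytic list (2 of 26: Prpf19 -1.17, Ppie -1.11). Of the kinases 2 of 7 were higher over 2-fold, Clk1 (2.17, adjusted p = 4.5e-07) and Srpk1 (1.11, adjusted p = 3.01e-06), and none lower. At an adjusted p under 0.05, where 35.2% of all genes were higher and 36.6% lower, 4 of 7 kinases were higher and 0 lower, and the other lists with genes higher were: 5 of 26 in the Prp19 list beside 11 lower, 5 other regulators beside 21, 4 U snRNP proteins beside 23 and 2 snRNP assembly genes beside 13.

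Cell type markers were read beside these results. All 8 CD8 T cell markers (Cd8a, Cd8b1, Cd3d, Cd3e, Cd3g, Cd247, Thy1 and Cd2) were present in every library, summing to 4679 to 5117 FPKM in naive, 1177 to 1492 FPKM in TCR, 1268 to 1439 FPKM in TCR_PI3Kdi, 2323 to 2664 FPKM in CTL_IL2 and 3173 to 3346 FPKM in CTL_noIL2 libraries, so the sum was lower in activated cells and higher without IL-2. The sums of the activated groups overlapped, but single markers differed in limma with the inhibitor against TCR. Cd3g (0.91, adjusted p = 0.000142), Cd3d (0.83, adjusted p = 0.000803) and Cd3e (0.47, adjusted p = 0.0172) were higher. Thy1 was lower (-0.76, adjusted p = 0.00169) and the other 4 did not pass. Without IL-2 the markers did not move as one: 5 were higher at an adjusted p under 0.05, Cd8a (0.13) and Cd247 (0.15) did not pass, and Thy1, the most abundant, was lower (-0.46, adjusted p = 0.00611). Of 6 B cell markers 4 had an entry in the first table (20.9 to 26.3 FPKM summed in naive, 4.63 to 7.12 in TCR and 3.30 to 4.58 in TCR_PI3Kdi libraries, mostly Cd79b), and only Cd79b in the CTL table (2.74 to 6.30 FPKM with IL-2 and 10.8 to 20.6 without). Of 10 myeloid and dendritic markers 3 had an entry in each table, Cd68 the most abundant. They summed to 2.49 to 5.45 FPKM over the naive, TCR and TCR_PI3Kdi libraries, with Itgam at 0 in TCR replicates 2 and 3, and to 5.57 to 9.67 FPKM with IL-2 and 13.7 to 21.7 FPKM without in CTL. In limma, TCR against naive, Itgam was over 2-fold lower (means of 0.01 and 0.26 FPKM, -1.73, adjusted p = 8.75e-05), at levels where the size depends on the constant added, and Cd68 did not pass (0.24). Zbtb46 was over 2-fold higher there (means of 0.57 and 0.08 FPKM, 1.89, adjusted p = 3.04e-05). With the inhibitor against TCR, Zbtb46 was over 2-fold lower (-1.59, adjusted p = 0.00171), and Cd68 (0.36) and Itgam (0.47) did not pass. In CTL Cd68 did not pass (0.17), while Itgam (0.20 to 0.39 and 3.89 to 4.46 FPKM, 3.44) and Itgax (0.21 to 0.39 and 3.67 to 5.17 FPKM, 3.51) were over 2-fold higher without IL-2. Cd4 was at 0.05 to 0.39 FPKM in CTL with IL-2 and 0.92 to 1.92 FPKM without (2.29, adjusted p = 0.000993), and Zbtb7b at 16.7 to 21.0 and 24.6 to 28.3 FPKM (0.58, adjusted p = 0.00116). In the other table Cd4 had no entry, and Foxp3 and Zbtb7b summed to at most 1.48 FPKM. NK markers were represented by Nkg7 and Eomes, which CD8 T cells also express, and in CTL also by Klrb1c. Their sum was 435 to 456 FPKM in naive, 172 to 200.4 in TCR, 138 to 153 in TCR_PI3Kdi, 737 to 1024 in CTL_IL2 and 350.5 to 388 FPKM in CTL_noIL2 libraries. Without IL-2 the NK markers did not move as one. Klrb1c was at 1.20 to 1.88 FPKM with IL-2 and 2.17 to 3.41 FPKM without, higher at an adjusted p under 0.05 in limma (0.70). Nkg7 (-1.07) and Eomes (-3.02) were over 2-fold lower. Eomes was over 2-fold lower with the inhibitor than with TCR alone (-1.50, adjusted p = 0.00311 in limma), while Nkg7 did not pass (-0.28). None of 6 erythroid markers had an entry. The part of these differences in the splicing gene results was not tested.

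The genomic features of the members were looked at in the reference. The shared sequence given above is the percentage of 50-base words of a gene's coding transcripts that also occur in other annotated genes or pseudogenes on either strand. Its median over the 48 members was 6.26%; 19 exceeded 10%, 4 exceeded 50% (Hnrnpf at 61.9%, Sf3b4 at 51.2%, Snrpf at 89.5% and Srsf4 at 65.4%), and 13 were under 1%, among them Srsf1, Sf3b1, Snrpb and Hnrnpu. Among the 19 were also Srsf2 (31.8%), Srsf3 (31.5%), Snrpa (26.1%), Hnrnpk (25.6%) and Srsf5 (23.6%). How fragments from shared sequence were counted is not stated.

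Promoter windows from RefSeq (GRCm38.p6, 250 bases before to 50 after a start) were matched by symbol to 43 members with 57 windows; Hnrnpul2, Sf3b4, Sf3b5, Snrpb and Snrpd1 were not searched. Short motifs were looked for on both strands, none contained in another, and each is only a match of letters. The E-box CACGTG was in 12.3% of the members' windows, 10.3% of the 11272 windows of genes in the first table and 7.15% of all 32851 windows. The ETS core CCGGAAG was in 35.1%, 18.9% and 8.86%, the CCAAT box CCAAT in 47.4%, 38.1% and 37.4%, and the GC box GGGCGG in 71.9%, 63.5% and 35.7%. These motifs and the windows printed were chosen after values had been seen, and longer motifs (of NRF-1, YY1, E2F and CREB) that were looked at once are left out.

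Printed 5′ to 3′ are the windows of the largest rises after activation among the members searched, Hnrnpab (chr11:51606832-51607131, minus strand), Snrpa1 (chr7:66060086-66060385, plus strand) and Snrpd2 (chr7:19149588-19149887, plus strand), and of Sf3b1 (chr1:55027429-55027728, minus strand), which moved the other way; capitals mark matches to the motifs on either strand, which are GC boxes in each and 3 CCAAT boxes in Hnrnpab.
Hnrnpab: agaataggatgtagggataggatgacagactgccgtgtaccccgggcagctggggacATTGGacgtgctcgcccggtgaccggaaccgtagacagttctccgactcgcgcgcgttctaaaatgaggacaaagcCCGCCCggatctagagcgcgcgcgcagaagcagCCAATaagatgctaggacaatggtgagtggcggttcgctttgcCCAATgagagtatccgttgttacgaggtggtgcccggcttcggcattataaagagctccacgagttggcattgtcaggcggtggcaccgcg
Snrpa1: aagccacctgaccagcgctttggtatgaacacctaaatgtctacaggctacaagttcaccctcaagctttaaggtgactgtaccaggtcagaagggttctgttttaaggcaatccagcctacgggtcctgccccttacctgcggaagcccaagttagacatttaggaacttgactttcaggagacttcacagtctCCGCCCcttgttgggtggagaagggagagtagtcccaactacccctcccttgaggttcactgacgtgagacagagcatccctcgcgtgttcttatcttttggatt
Snrpd2: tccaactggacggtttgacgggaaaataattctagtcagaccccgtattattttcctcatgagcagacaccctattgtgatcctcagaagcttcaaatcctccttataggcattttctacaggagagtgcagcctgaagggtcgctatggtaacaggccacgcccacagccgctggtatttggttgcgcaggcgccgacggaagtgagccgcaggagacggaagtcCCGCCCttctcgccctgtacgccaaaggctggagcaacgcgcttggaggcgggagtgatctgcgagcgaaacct
Sf3b1: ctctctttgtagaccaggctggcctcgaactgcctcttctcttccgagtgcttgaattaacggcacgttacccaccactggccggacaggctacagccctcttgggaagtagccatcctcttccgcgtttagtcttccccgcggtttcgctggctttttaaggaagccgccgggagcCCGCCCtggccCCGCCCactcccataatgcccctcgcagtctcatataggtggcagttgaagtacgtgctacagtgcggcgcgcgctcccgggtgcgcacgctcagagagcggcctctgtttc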

How the data were processed

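mRNA of 15 libraries (5 groups of 3) was measured by stranded, poly(A)-selected sequencing. The authors aligned the naive and activated CD8 libraries with STAR 2.5.2b to mm10, counted RefSeq genes with Subread 1.5.1, filtered and normalised them (TMM, edgeR) and deposited FPKM using summed exon length; the labels name the same tools for the CTL table, also deposited as FPKM, with no order of steps. Empty cells were read as 0, and read totals are unknown.

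Each table was fitted whole with limma 3.58.1 in R 4.3.3 on log2(FPKM + 0.1) (group means, eBayes with trend, Benjamini-Hochberg over all genes), called at an adjusted p under 0.05, with and without a fold over 2 or under 0.5, and checked on simulated data. The 4 comparisons were TCR and TCR_PI3Kdi against naive, TCR_PI3Kdi against TCR, and CTL_noIL2 against CTL_IL2. Members and gene lists (8 splicing pathway lists and 6 marker lists) were chosen with earlier results of these data known. Named in the text are, per comparison, up to 4 largest rises and falls, the 2 most abundant genes per family, genes with textbook roles and the 2 largest called changes per list; others named by a count of 5 or fewer, by shared sequence or by their spelling were chosen after their values were seen.

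Alternatives were constants of 1 and 0.01, a mean FPKM of at least 1, median and total scaling, the replicate number as a block, no trend, only the 2 groups compared, each library left out, and a fold limit of 1.5; a correction for GC content in 10 bins, alone and with the block, was chosen after seeing the data. Left out: isoforms, and any test across tables. Text tables and plots were made with Python 3.11.15, pandas 2.3.3 and matplotlib 3.10.9.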

Additional observations from a re-analysis of the deposited data

How the results depend on the processing

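In every alternative most members rose after activation and fell without IL-2. Called over 2-fold in every alternative were 19 of 24 members higher with TCR, 15 of 21 higher with TCR_PI3Kdi and 11 of 17 lower without IL-2. With a constant of 1 or a mean FPKM of at least 1, the count lower over 2-fold against naive cells was 0 with TCR and with TCR_PI3Kdi, since Srsf12 shrank or was not tested. At a fold limit of 1.5 it was 2 with TCR and 3 with TCR_PI3Kdi, the count higher with TCR_PI3Kdi was 33, and the count lower without IL-2 was 32. Median scaling moved the median of all genes by 0.12 for TCR against naive, and the members' median was then 1.08 with TCR and 0.98 with TCR_PI3Kdi. Total scaling moved the median of all genes by 0.12 in CTL; the members' median was then -0.71 and 11 were lower over 2-fold.

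For TCR_PI3Kdi against TCR, total scaling gave a members' median of 0.011, left 1 member lower at an adjusted p under 0.05, and turned the log2 fold change of genes not past the test: Srsf5 0.016, Snrpb 0.021, Sf3b2 0.0056, Sf3b3 0.054, Srsf1 0.018 and Sf3b1 0.075. Hnrnpk turned to -0.011 with median scaling. Leaving out 1 library each gave 1 to 3 members lower at an adjusted p under 0.05, and log2 fold changes between -0.20 and 0.039 for Snrpb, -0.11 and 0.084 for Hnrnpk, -0.081 and 0.016 for Sf3b3, -0.17 and 0.011 for Srsf1 and -0.098 and 0.052 for Sf3b1. In CTL, 1 to 2 members were higher at an adjusted p under 0.05, with 2 without CTL_IL2 replicate 1. The cause of these changes was not tested beyond the scaling itself.

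The replicate block treats same-numbered libraries as pairs, as in the pooled and split design of the naive and activated groups; for CTL the pairing is not stated. Deviations from the group mean correlated across genes between same-numbered libraries with r of 0.275, 0.203 and 0.506 for TCR with TCR_PI3Kdi and 0.123, 0.166 and 0.257 in CTL, but -0.141, 0.226 and -0.181 for naive with TCR and -0.0147, -0.0171 and 0.0303 for naive with TCR_PI3Kdi; genes are not independent replicates. With the block, the Hnrnpa3 call after activation was lost (-0.40), which left 4 lower, Snrpg was called lower in CTL (-0.25), which made 41 lower, and no other call of a member changed. Depth is unknown, so differences near 0.1 FPKM are not interpretable.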
